A study of Mus musculus with 24 samples.

Results

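The integrated stress response genes described here are 10 genes taken by name from the count tables: Atf4, Atf5, Ddit3, Trib3, Chac1, Asns, Psat1, Phgdh, Sesn2 and Ddit4. They are 10 of the 55414 mouse gene identifiers counted in each library. Of the 10 members, 8 passed the filter on low counts that left 16167 genes for testing, and Chac1 and Psat1 did not.

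The cells were mouse 32D cells, a myeloid line from bone marrow that depends on interleukin 3, grown in medium with 10% FBS and 10 ng/ml IL-3. 3 genotypes were sampled: KO1 and KO2, which are 2 clones labelled Nat10+/-, and WT cells. Nat10 encodes the enzyme that places N4-acetylcytidine (ac4C) on RNA. Each genotype was collected after 0, 3, 6 and 9 h with actinomycin D at 0.05 µg/ml, an inhibitor of transcription, in a design meant to follow how long mRNAs last, and each of the 12 groups has 2 libraries of polyA RNA. The 0 h libraries are the cells before the drug. How far this dose stopped the making of mRNA was not tested.

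The integrated stress response starts when kinases that sense missing amino acids, endoplasmic reticulum stress, double-stranded RNA or mitochondrial stress phosphorylate the translation factor eIF2alpha. General protein synthesis then falls while the mRNA of Atf4 is translated more, so that the transcription factor ATF4 is raised at the level of protein. ATF4 switches on further transcription factors, enzymes of amino acid synthesis, transporters and tRNA synthetases, and feedback inhibitors such as Trib3.

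The libraries held between 15361601 and 17338939 gene counts. Nat10 was lower in both clones before the drug, at 97.7 and 108 CPM (counts scaled to library size by edgeR with TMM factors) in KO1 and 99.2 and 95.1 CPM in KO2, against 111 and 113 CPM in WT, a log2 difference of −0.12 in KO1 (adjusted p = 0.0486) and −0.21 in KO2 (adjusted p = 0.000291). At 3 h the Nat10 differences of −0.06 and −0.08 were not called (adjusted p = 0.397 in KO1 and 0.223 in KO2). They were −0.26 in KO1 and −0.4 in KO2 at 6 h, and −0.39 and −0.44 at 9 h. The Nat10 calls, with that of KO1 at 0 h close to the threshold of 0.05, were not checked under the alternatives given below. Each clone and the WT cells are 1 line each, so how much separate clones of a genotype vary enters none of the p-values. The labels call the 2 libraries of a group biological replicates without saying that they came from separate cultures, and the p-values measure only the spread between these libraries. That spread was small, with a common biological coefficient of variation of 0.0206. Within a group the 2 libraries differed by 1.43 to 2.31 times counting noise (chi-square per degree of freedom). Of 7 myeloid markers 5 were detected in all 24 libraries, with sums of 552 to 1160 CPM in KO1, 522 to 1150 CPM in KO2 and 500 to 1270 CPM in WT. The 6 B and T lymphocyte markers summed to at most 22.1 CPM in KO1, 20.4 CPM in KO2 and 25.2 CPM in WT, although the labels call the cell type lymphoblastocytes. Of these, Cd79a averaged 13.1 CPM over all libraries and the others at most 0.223 CPM. At 0 h Cd79a averaged 0.0332 CPM in KO1, 0.125 CPM in KO2 and 0.237 CPM in WT. Ms4a1 was at 0 in all 24 libraries, and among the myeloid markers Kit averaged 0.00739 CPM. Mpo averaged 0.133 CPM in KO1, 0 CPM in KO2 and 0.118 CPM in WT at 0 h. The 7 stromal markers summed to at most 1.05 CPM in KO1, 1.04 CPM in KO2 and 8.05 CPM in WT. At 0 h the sums were 0.199 and 0.439 CPM in KO1, 0.188 and 0.125 CPM in KO2, and 8.05 and 5.38 CPM in WT, which had at most 1.05 CPM at the later hours, and 4 of the 4 tested were lower in each clone than in WT at 0 h. Bgn averaged 0 CPM in KO1, 0 CPM in KO2 and 2.34 CPM in WT at 0 h. The part of such RNA in the 0 h results, and in the changes from 0 h in WT, was not tested.

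Asns, Trib3 and Chac1 are shown first, because they are the 3 members whose promoter window holds the letters TGATGNAA, a form of the composite site bound by ATF4 with C/EBP partners. The windows run from 250 bases before to 30 bases after the start of the gene in RefSeq (build GRCm38.p6), are written 5′ to 3′ on the gene's strand, and carry the motif in capitals, on whichever strand it was found.
Asns, chr6:7693180-7693459, minus strand: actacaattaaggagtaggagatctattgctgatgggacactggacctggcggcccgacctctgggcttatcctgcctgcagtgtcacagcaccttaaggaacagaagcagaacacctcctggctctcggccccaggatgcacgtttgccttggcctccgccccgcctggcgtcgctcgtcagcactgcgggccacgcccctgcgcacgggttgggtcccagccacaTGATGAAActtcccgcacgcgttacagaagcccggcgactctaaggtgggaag
Trib3, chr2:152344031-152344310, minus strand: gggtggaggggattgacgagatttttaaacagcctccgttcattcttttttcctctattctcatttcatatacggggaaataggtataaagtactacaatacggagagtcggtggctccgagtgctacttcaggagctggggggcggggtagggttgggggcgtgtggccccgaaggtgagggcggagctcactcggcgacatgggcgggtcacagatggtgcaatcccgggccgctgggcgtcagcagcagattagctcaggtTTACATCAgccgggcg
Chac1, chr2:119350992-119351271, plus strand: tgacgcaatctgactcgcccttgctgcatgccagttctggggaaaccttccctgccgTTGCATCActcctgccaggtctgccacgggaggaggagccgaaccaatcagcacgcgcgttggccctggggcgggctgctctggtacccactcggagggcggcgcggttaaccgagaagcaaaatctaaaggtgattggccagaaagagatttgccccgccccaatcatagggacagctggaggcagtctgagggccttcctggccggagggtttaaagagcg
The match in Asns starts 23 bases before the start site and reads in the direction of the gene. That in Chac1 starts 193 bases before it, and that in Trib3 lies 14 bases after it, both on the opposite strand. All 10 members matched the RefSeq table, with 12 windows, and 3.97% of all 32851 windows of 300 bases hold the motif on either strand. A match is a stretch of letters and not a measured binding site.

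Before the drug the members fell into 2 classes by level. Per length of exon, the group means of 8 members stood between 49.7 and 333 CPM per kb, while Psat1 stood at 0.0906 in KO1, 0.0294 in KO2 and 0.0626 in WT, and Chac1 had no count in any of the 6 libraries at 0 h. In WT the order of these levels per kb was Phgdh (258 ± 0.19), Trib3 (255 ± 8.95), Atf4 (225 ± 0.361), Ddit3 (182 ± 1.65), Asns (95.2 ± 2.31), Atf5 (84.3 ± 2.27), Ddit4 (73.1 ± 3.03) and Sesn2 (49.7 ± 0.432; SD, n = 2 each). Phgdh and Trib3 did not differ beyond their spread in WT. In both clones Trib3 came first, with 333 ± 0.998 in KO1 and 319 ± 0.937 in KO2. In KO1 the next 3 members lay close together, with Ddit3 at 260 ± 2.4, Phgdh at 257 ± 0.293 and Atf4 at 254 ± 4.65, and the ranges of Atf4 and Phgdh overlapped.

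**Figure D1:**
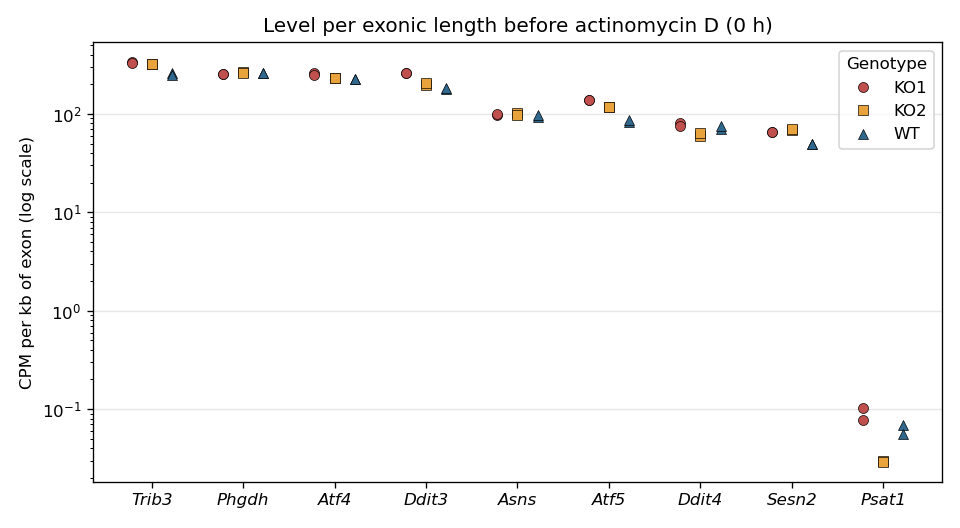
CPM per kb of exon on a log axis for 9 members at 0 h, with 2 points (libraries) for each of KO1, KO2 and WT. The points of the 8 members that passed the filter lie between 49.4 and 334, and those of Psat1 at 0.103 or below. Chac1 had no count at 0 h and is not drawn.

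Psat1 (chr19:15882042-15924701 on GRCm39, minus strand) makes phosphoserine in the step of serine synthesis that follows Phgdh, the enzyme that opens the pathway. Over all hours Psat1 had 21 counts in the 8 KO1 libraries, 19 in the 8 KO2 libraries and 22 in the 8 WT libraries. These are 0.161 per 1e6 gene counts in KO1 (exact 95% Poisson interval 0.0998 to 0.246), 0.144 in KO2 (0.0865 to 0.224) and 0.165 in WT (0.103 to 0.25), and the intervals cover counting error only. Psph, which completes the pathway and is named here after its values were seen, averaged 6.13 CPM in KO1, 7.02 CPM in KO2 and 6.74 CPM in WT at 0 h. Phgdh was thus abundant in the same libraries in which the gene of the next enzyme was close to absent. Chac1 (chr2:119181710-119184862 on GRCm39, plus strand), an enzyme that breaks down glutathione and a much used marker of this response, had 7 counts over all 24 libraries and no more than 2 in any of them. That is 0.0177 per 1e6 gene counts (0.00711 to 0.0364), too few to compare genotypes or hours.

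Before the drug, 5 of the 8 tested members were higher in KO1 than in WT and none was lower, where 27.3% of all genes tested were called either way and 15% were called higher. In KO2, 4 members were higher and 1 was lower than in WT, against 29.4% of all genes called either way and 15.1% called higher. A gene is called at an adjusted p below 0.05 in edgeR's quasi-likelihood test with Benjamini-Hochberg adjustment over all 16167 genes. Of these, 10254 averaged at least 5 CPM, whereas each tested member averaged at least 108 CPM in every genotype at 0 h. Genes with fewer counts are harder to call, so the shares over all genes are not matched to the members' levels, here or below. The median log2 difference of the 8 members was 0.29 in KO1 and 0.11 in KO2, beside 0.01 and 0 for all genes tested. The members higher in both clones at 0 h were Atf5, Ddit3, Trib3 and Sesn2, and both clones were set against the same WT libraries.

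Among the transcription factors, Atf4 itself (chr15:80139385-80141742, plus strand; gene coordinates are on GRCm39 and span the whole gene, as the count tables give them) differed little. Its level was 608 and 592 CPM in KO1, 550 and 549 CPM in KO2, and 530 and 531 CPM in WT. Both KO1 libraries lay above both WT libraries, with a log2 difference of 0.18 (SE 0.025, adjusted p = 3.93e-09), whereas the KO2 difference of 0.05 was not called (SE 0.025, adjusted p = 0.12). These are RNA levels, and the amount of ATF4 protein was not measured.

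Atf5 (chr7:44461680-44466082, minus strand), a factor of the same family whose translation is also favoured when eIF2alpha is phosphorylated, differed more than Atf4 or Ddit3 in both clones. Its level was 276 and 275 CPM in KO1, 234 and 233 CPM in KO2, and 165 and 171 CPM in WT, with no overlap between the 3 genotypes. The log2 difference from WT was 0.71 in KO1 (SE 0.034, adjusted p = 5.51e-36) and 0.47 in KO2 (SE 0.034, adjusted p = 3.3e-23). The span of Atf5 overlaps those of Nup62 and Il4i1 on the other strand, and the counting did not use strand. Whether their exons overlap was not checked. Reads from any shared exon could not be assigned by strand, and Nup62 is itself well expressed.

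Ddit3 (chr10:127126643-127132157, plus strand) encodes CHOP, the factor linked to cell death under long stress. It stood at 443 and 449 CPM in KO1, 339 and 356 CPM in KO2, and 309 and 313 CPM in WT. KO1 lay clear of both other genotypes, and KO2 lay above WT by less, with log2 differences from WT of 0.52 in KO1 (SE 0.031, adjusted p = 3.06e-28) and 0.16 in KO2 (SE 0.031, adjusted p = 1.86e-05). The span of Ddit3 overlaps those of Mars and Gm4189 on the other strand, so the same limit of unstranded counting holds for any shared exon. A second identifier with the symbol Ddit3 had 0 counts and was not used.

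Trib3 (chr2:152179342-152185952, minus strand) encodes a pseudokinase that is induced by ATF4 and CHOP and restrains them. It stood at 709 and 706 CPM in KO1, 676 and 678 CPM in KO2, and 555 and 528 CPM in WT. Both clones were above both WT libraries, with log2 differences of 0.39 in KO1 (SE 0.026, adjusted p = 3.49e-24) and 0.32 in KO2 (SE 0.026, adjusted p = 1.15e-19).

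Sesn2 (chr4:132219343-132237812, minus strand) and Ddit4 (chr10:59785491-59787656, minus strand) encode inhibitors of mTORC1, the kinase complex that drives growth, and they did not move together. Sesn2 stood at 226 and 228 CPM in KO1, 238 and 246 CPM in KO2, and 172 and 174 CPM in WT, a log2 difference of 0.39 in KO1 (SE 0.032, adjusted p = 2.6e-19) and 0.49 in KO2 (SE 0.032, adjusted p = 1.27e-25). Ddit4, also called REDD1, stood at 142 and 131 CPM in KO1, 106 and 111 CPM in KO2, and 125 and 132 CPM in WT. KO2 was below WT by 0.24 on the log2 scale (log2 difference −0.24, SE 0.041, adjusted p = 4.85e-07), while the KO1 libraries overlapped the WT range and the difference of 0.09 was not called (SE 0.039, adjusted p = 0.0796). The span of Sesn2 overlaps that of Gm12981 on the same strand. Whether their exons overlap was not checked, and reads in any shared exon may have been left out or split by the counting.

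The enzymes did not separate the genotypes before the drug. Asns (chr6:7675169-7693254, minus strand), which makes asparagine, stood at 267 and 275 CPM in KO1, 275 and 269 CPM in KO2, and 256 and 265 CPM in WT, with log2 differences of 0.06 in both clones (SE 0.032 each; adjusted p = 0.188 in KO1 and 0.119 in KO2). Phgdh (chr3:98220486-98247306, minus strand) stood at 639 and 638 CPM in KO1, 662 and 649 CPM in KO2, and 642 and 641 CPM in WT. Its log2 difference was −0.01 in KO1 (SE 0.022, adjusted p = 0.879) and 0.03 in KO2 (SE 0.022, adjusted p = 0.336).

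The clones also differed from each other. At 0 h, 1 member was higher and 4 were lower in KO2 than in KO1, where 16.8% of all genes were called either way. The lower ones were Ddit3 (log2 difference −0.36), Ddit4 (−0.33), Atf5 (−0.24) and Atf4 (−0.13), with adjusted p-values of 2.28e-18, 5.3e-11, 1.6e-09 and 3.3e-05. The call of Sesn2, higher in KO2 by 0.09, was lost without KO1 replicate 1, KO1 replicate 2 or KO2 replicate 2, with adjusted p-values of 0.201, 0.108 and 0.351.

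The other genes of the pathway were also counted at 0 h. Over 6 lists of kinases and eIF2 factors, partner and related transcription factors, synthesis enzymes, transporters, tRNA synthetases and other effectors, 62 of 68 genes were tested. Of these, 32 were higher and 6 lower in KO1, and 29 were higher and 6 lower in KO2, with median log2 differences of 0.14 in KO1 and 0.09 in KO2. Over all genes tested, 27.3% were called and 15% were higher in KO1, and 29.4% were called and 15.1% were higher in KO2.

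The aminoacyl-tRNA synthetases, which charge tRNAs and of which many are ATF4 targets, were higher for 10 of 12 genes in KO1 and 8 of 12 in KO2, and none was lower. Nars averaged 983 CPM in KO1, 866 CPM in KO2 and 771 CPM in WT, with log2 differences of 0.35 in KO1 and 0.17 in KO2. Lars differed by 0.32 in KO1 and 0.21 in KO2. Of 8 amino acid transporters 5 were higher in each clone and none was lower, among them the arginine transporter Slc7a1 with 493 CPM in KO1, 511 CPM in KO2 and 402 CPM in WT (log2 differences 0.29 and 0.35). The glycine transporter Slc6a9 was called in KO2 with 0.35 and not in KO1 (0.18, adjusted p = 0.0849). These lists thus had their calls in 1 direction.

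Of 10 tested enzymes of serine, one-carbon and amino acid synthesis, 4 were higher and 2 lower in KO1, and 5 were higher and 1 lower in KO2. The mitochondrial folate enzyme Mthfd1l was higher in both clones (0.27 in KO1 and 0.23 in KO2), as was Pck2 (0.12 in KO1 and 0.32 in KO2). Gpt2, an alanine aminotransferase, was lower in both (−0.11 in KO1 and −0.20 in KO2), and Pycr1 of proline synthesis was lower in KO1 (−0.32) and not called in KO2 (0.04, adjusted p = 0.754).

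Of the 8 partner and related transcription factors, which include Atf6 and Xbp1, 5 were higher and 1 lower in each clone. Cebpb, a C/EBP partner of ATF4, averaged 19.7 CPM in KO1, 30.6 CPM in KO2 and 15.6 CPM in WT, with log2 differences of 0.34 in KO1 and 0.97 in KO2. Nupr1 differed by 0.46 in KO1 and 0.33 in KO2, and Xbp1, the factor of the IRE1 branch of the unfolded protein response, by −0.09 in KO1 and by −0.06 in KO2, where it was not called (adjusted p = 0.114).

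The list of kinases, eIF2 and eIF2B subunits and phosphatase genes also held Gcn1l1, Impact, Dele1 and Oma1. Of its 16 genes, 5 were higher and none lower in KO1, and 4 were higher and 1 lower in KO2. Eif2ak2, the kinase PKR that binds double-stranded RNA, averaged 119 CPM in KO1, 280 CPM in KO2 and 115 CPM in WT. Only the KO2 difference was called, with 1.29 (SE 0.034, adjusted p = 1.87e-57), against 0.05 in KO1 (SE 0.039, adjusted p = 0.432). Dele1, which carries mitochondrial stress to the kinase HRI, was higher in both clones (0.40 in KO1 and 0.33 in KO2), and Eif2ak3, the endoplasmic reticulum kinase PERK, was lower in KO2 (−0.27) and not called in KO1 (−0.20, adjusted p = 0.101).

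The other effectors were mixed, with 3 higher and 3 lower of 8 in KO1 and 2 higher and 3 lower of 8 in KO2. Bbc3, which encodes the death factor PUMA, averaged 256 CPM in KO1, 247 CPM in KO2 and 175 CPM in WT (log2 differences 0.55 and 0.50), and Gdf15 differed by 0.52 in KO1 and 0.54 in KO2 at 3.19 to 4.65 CPM. The relatives of Sesn2 went the other way: Sesn1 was lower by −0.47 in KO1 and −0.37 in KO2, and Sesn3 by −0.41 and −0.43 in the same order.

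Lists related to the members were read against the same background, 27.3% of all genes called in KO1 and 29.4% in KO2. Sesn2, Ddit4 and Bbc3 are also known as targets of p53. Of 10 further p53 targets tested, 9 were higher and 1 lower in KO1, and 5 were higher and 2 lower in KO2. Aen differed by 0.46 in KO1 and 0.78 in KO2, Phlda3 by 0.51 and 0.41, and Ddb2 by −0.50 and −0.41, while Cdkn1a, which encodes p21, differed by 0.07 in KO1 and −0.09 in KO2. Of 8 hypoxia response genes, the group to which Ddit4 also belongs, none was higher and 5 were lower in KO1, and 1 was higher and 6 were lower in KO2. Bnip3 fell to 45.6 CPM in KO1 and 61.9 CPM in KO2, against 120 CPM in WT, and Egln3 fell to 29.3 CPM in KO1 and 42.5 CPM in KO2, against 77.9 CPM in WT. Ankrd37 was higher in KO2 (0.79, adjusted p = 0.0365) at 1.84 CPM. The endoplasmic reticulum chaperones were split, with 4 higher and 4 lower of 10 in KO1 and 2 higher and 6 lower of 10 in KO2. Hspa5, the chaperone BiP, was higher in KO1 (0.38) and lower in KO2 (−0.18), Dnajc3 was higher in both (0.24 and 0.18), and Calr and Pdia4 were lower in both (Calr −0.20 and −0.37, Pdia4 −0.16 and −0.30). The part of p53, hypoxia or endoplasmic reticulum stress in the members' levels was not tested.

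After actinomycin D, on the TMM scale, Atf4, Ddit3 and Trib3 dropped steeply within 3 h, Asns, Phgdh and Atf5 ended well below their start at 9 h, Sesn2 was lower by less, and Ddit4 was higher. Levels are again CPM, so a member rises or falls relative to the other RNAs of the library. At 3 h, 2 members were higher and 5 lower than at 0 h in WT, where 72.2% of all genes were called. In each clone 2 were higher and 6 lower, beside 71.3% of all genes called in KO1 and 70.9% in KO2. At 6 h, 1 was higher and 7 lower than at 0 h in each genotype (78% of all genes called in KO1, 79.2% in KO2 and 79.1% in WT). At 9 h, 1 member was higher and 7 lower than at 0 h in each genotype, where 80.5% of all genes were called in KO1, 80.8% in KO2 and 81.7% in WT. With 8 members, 7 or 8 calls is near this background. The members' median log2 difference at 9 h was −1.82 in KO1, −1.67 in KO2 and −1.5 in WT, beside 0.119, 0.094 and 0.125 for all genes tested.

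**Figure D2:**
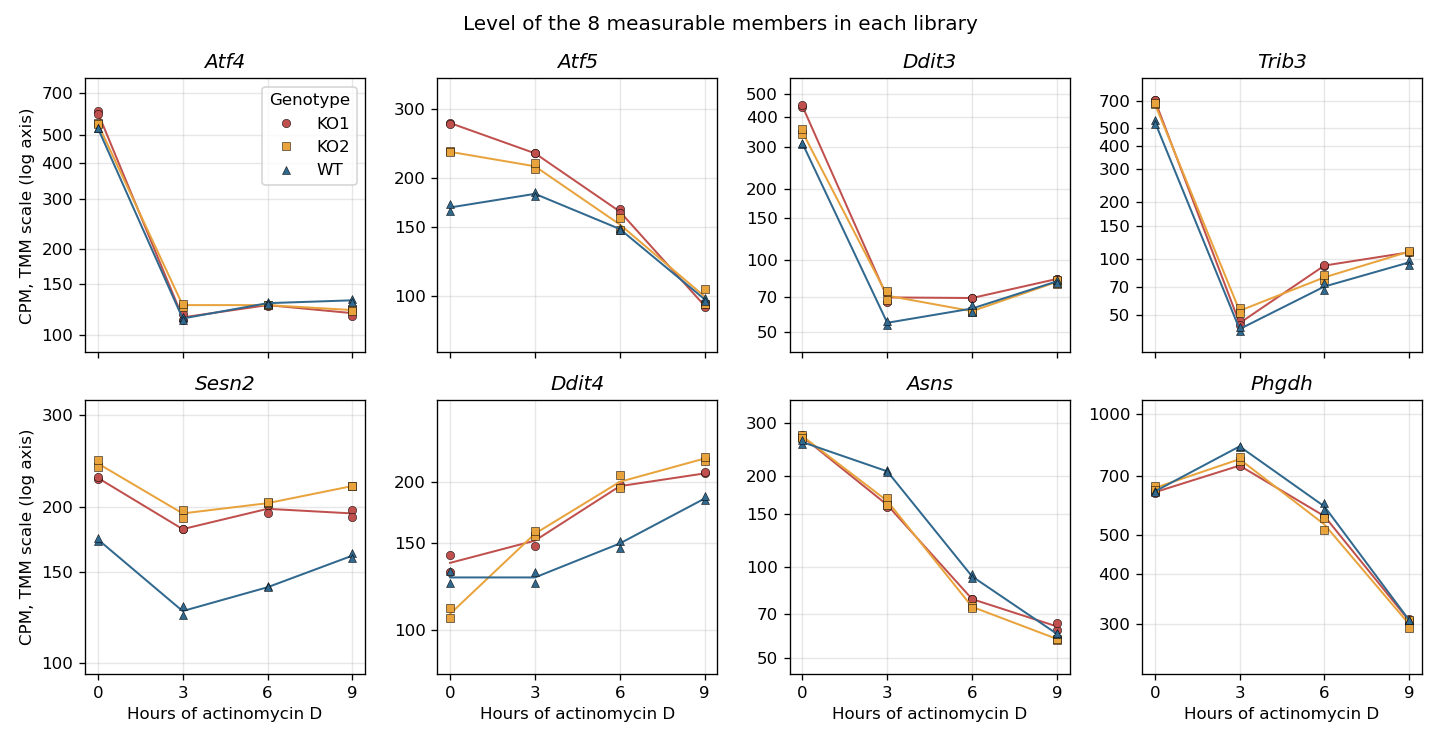
CPM on the TMM scale (log axis, its range set per panel) against hours of actinomycin D for the 8 tested members, with 1 point per library and lines through the means of KO1, KO2 and WT. Atf4, Ddit3 and Trib3 drop by 3 h, Asns, Phgdh and Atf5 decline to 9 h, Ddit4 climbs (on the spike-in scale it does not in KO2 or WT), and Sesn2 lies higher in both clones than in WT at every hour.

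From 3 h to 9 h, 4 members were higher and 3 lower in KO1 (65.2% of all genes called), 4 higher and 3 lower in KO2 (66.2%), and 5 higher and 3 lower in WT (65.9%). Of these, Trib3 had dropped furthest by 3 h and then came back in part. At 3 h it stood at 46.2 and 44.1 CPM in KO1, 54.1 and 50.8 CPM in KO2, and 41 and 42.8 CPM in WT, which was 15.7-fold, 12.9-fold and 12.9-fold lower than at 0 h. At 9 h it stood at 108 CPM in both KO1 libraries, 108 and 110 CPM in KO2, and 98.5 and 92.4 CPM in WT. The 9 h libraries lay above every 3 h library, and the rise after 3 h was 2.40-fold in KO1, 2.08-fold in KO2 and 2.28-fold in WT (adjusted p = 2.19e-45, 5.02e-40 and 2.65e-41).

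Atf4 and Ddit3 also dropped by 3 h. Atf4 stood at 118 and 113 CPM in KO1, 125 and 128 CPM in KO2, and 115 and 113 CPM in WT at 3 h, which was 5.20-fold, 4.34-fold and 4.65-fold lower than at 0 h. It then stayed near that level in the clones, and was higher at 9 h than at 3 h in WT by 0.21 on the log2 scale (adjusted p = 4.39e-07), whereas the clones' differences of 0.05 in KO1 and −0.05 in KO2 were not called (adjusted p = 0.272 and 0.19). Ddit3 was 6.40-fold lower in KO1, 4.89-fold lower in KO2 and 5.71-fold lower in WT at 3 h. Its level at 9 h was 83.3 and 83.6 CPM in KO1, 79.5 and 82.6 CPM in KO2, and 82.8 and 80.3 CPM in WT, so the 3 genotypes overlapped or nearly so. From 3 h to 9 h it was higher by 0.26 in KO1, 0.19 in KO2 and 0.58 in WT. The KO2 call was lost without KO2 replicate 1 at 3 h (0.12, adjusted p = 0.0565).

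The enzymes and Atf5 declined more slowly. Asns averaged 271, 161, 78.5 and 63.7 CPM in KO1, 272, 166, 74 and 57.9 CPM in KO2, and 260, 208, 93.3 and 60.2 CPM in WT at 0, 3, 6 and 9 h. Its log2 difference at 9 h from 0 h was −2.09 in KO1, −2.23 in KO2 and −2.11 in WT. Phgdh was higher at 3 h than at 0 h, by 0.22 in KO1, 0.24 in KO2 and 0.37 in WT, and at 9 h was lower than at 0 h by −1.07, −1.13 and −1.07 in the same order. Atf5 was lower at 9 h by −1.55 in KO1, −1.23 in KO2 and −0.78 in WT, and ended at 94.2 ± 1.23 CPM in KO1, 99.5 ± 6.37 CPM in KO2 and 97.9 ± 1.45 CPM in WT (SD, n = 2 each). At 3 h Atf5 was lower in KO1 (−0.25) and KO2 (−0.12) and higher in WT (0.11), the last not called by DESeq2 (adjusted p = 0.065) or without WT replicate 1 at 0 h (adjusted p = 0.0587).

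On the TMM scale the mTORC1 inhibitors Sesn2 and Ddit4 changed less than Atf4, Ddit3 and Trib3, and only Ddit4 was higher at 9 h than at 0 h. Sesn2 averaged 227, 181, 198 and 194 CPM in KO1, 242, 194, 203 and 219 CPM in KO2, and 173, 126, 140 and 161 CPM in WT at 0, 3, 6 and 9 h. It was lower at 3 h by −0.32 in each clone and −0.45 in WT, and at 9 h by −0.23 in KO1, −0.14 in KO2 and −0.10 in WT; the WT call at 9 h was lost without WT replicate 2 at 9 h (−0.08, adjusted p = 0.0637). Ddit4 averaged 137, 152, 196 and 208 CPM in KO1, 108, 157, 200 and 223 CPM in KO2, and 128, 128, 150 and 185 CPM in WT. At 9 h it was higher than at 0 h by 0.61 in KO1, 1.04 in KO2 and 0.53 in WT (adjusted p = 7.21e-30, 1.23e-47 and 2.7e-25) on the TMM scale, a direction that the spike-in scale did not keep in KO2 or WT.

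The scale of the libraries decided some of these directions. Added ERCC spike-in RNA gave 3742 to 13774 counts in the clones and 120 to 257 counts in WT, so it was used only for changes between hours within a genotype, and never to compare levels of a clone and WT. With spike-in totals as the scale, the median log2 difference of all genes at 9 h from 0 h was 0.20 in KO1, −1.03 in KO2 and −0.70 in WT. On this scale Ddit4 at 9 h was higher than at 0 h in KO1 (0.69, adjusted p = 3.65e-08), not called in KO2 (−0.09, adjusted p = 0.485) and lower in WT (−0.29, adjusted p = 0.0204). Phgdh at 3 h was not called in KO1 (0.06, adjusted p = 0.671) or WT (−0.13, adjusted p = 0.338) and was lower in KO2 (−0.44, adjusted p = 0.000336), and Atf5 at 3 h was lower in WT (−0.39, adjusted p = 0.00238). Sesn2 at 9 h was lower than at 0 h by −1.27 in KO2 and −0.93 in WT, and not called in KO1 (−0.15, adjusted p = 0.255). The gain of Atf4 in WT after 3 h turned to −0.12 (adjusted p = 0.419). The gain of Ddit3 from 3 h to 9 h was called on it in KO1 (0.50, adjusted p = 0.000187) and not in KO2 (−0.26, adjusted p = 0.056) or WT (0.25, adjusted p = 0.0732).

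The return of Trib3 and the losses by 9 h of Atf4, Atf5, Ddit3, Trib3, Asns and Phgdh kept their direction and call on both scales. From 3 h to 9 h Trib3 was higher on the spike-in scale by 1.5 in KO1 (adjusted p = 9.28e-31), 0.60 in KO2 (adjusted p = 4.33e-06) and 0.86 in WT (adjusted p = 7.44e-11).

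**Figure D3:**
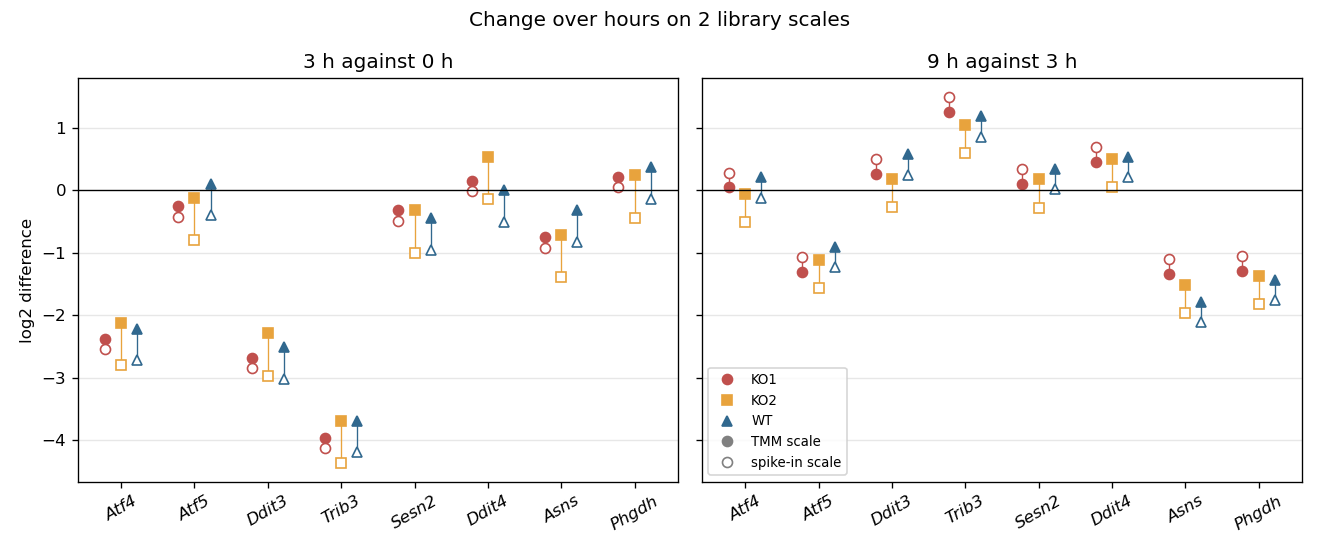
Log2 difference at 3 h against 0 h (left) and at 9 h against 3 h (right) for the 8 tested members in KO1, KO2 and WT, with the TMM scale filled and the spike-in scale open. At 9 h against 3 h Trib3 is above 0 on both scales in all 3 genotypes. In the same panel, on the spike-in scale, Ddit4 of KO2 moves toward 0 and Ddit3 and Sesn2 of KO2 move across it.

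The clones and WT differed after the drug in members that had not differed before it. At 3 h, 4 members were higher and 2 lower in KO1 than in WT (36.8% of all genes called), and 6 were higher and 2 lower in KO2 (38.7%). At 6 h the counts were 5 higher and 2 lower in KO1 (35.7%) and 3 higher and 2 lower in KO2 (34.3%), and at 9 h they were 3 higher and 1 lower in each clone (34.4% of all genes in KO1 and 35.2% in KO2).

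Asns was lower in both clones at 3 and 6 h. It stood at 159 and 163 CPM in KO1, 170 and 161 CPM in KO2, and 210 and 207 CPM in WT at 3 h, a log2 difference of −0.37 in KO1 (SE 0.035, adjusted p = 2.27e-16) and −0.33 in KO2 (SE 0.035, adjusted p = 5.12e-14). At 6 h the differences were −0.25 in KO1 and −0.33 in KO2, and at 9 h they were 0.08 and −0.06 and not called (adjusted p = 0.199 and 0.393). All clone libraries lay below all WT libraries at 3 and 6 h, and at 9 h KO1 lay slightly above and KO2 slightly below the WT libraries. Phgdh was lower at 3 h by −0.16 in KO1 and −0.11 in KO2 and at 6 h by −0.08 and −0.15; the KO1 call at 6 h was lost without WT replicate 1 at 6 h (−0.05, adjusted p = 0.173) and with DESeq2 (−0.06, adjusted p = 0.0611).

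Sesn2 was higher in both clones at every hour. At 9 h it stood at 197 and 191 CPM in KO1, 219 CPM in both KO2 libraries, and 163 and 159 CPM in WT. At 3, 6 and 9 h its log2 difference from WT was 0.52, 0.49 and 0.27 in KO1 and 0.62, 0.53 and 0.45 in KO2, with adjusted p-values of 1.42e-11 or less. Ddit4, unlike at 0 h, was higher in both clones at 3, 6 and 9 h, by 0.25, 0.39 and 0.17 in KO1 and by 0.30, 0.42 and 0.26 in KO2. No clone library of Ddit4 after the drug fell within the WT range of its hour.

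The differences of Atf5 and Ddit3 shrank over the hours. Atf5 was higher at 3 h in KO1 (0.35) and KO2 (0.24), at 6 h in KO1 (0.15) but not in KO2 as called (0.04, adjusted p = 0.45), and in neither clone as called at 9 h (−0.05 in KO1 and 0.02 in KO2, adjusted p = 0.335 and 0.686). Ddit3 was higher at 3 h in KO1 (0.35) and KO2 (0.38), and at 9 h was not called (0.03 and −0.01, adjusted p = 0.618 and 0.916). Its call in KO1 at 6 h (0.15, adjusted p = 0.0127) was lost without KO1 replicate 2 (adjusted p = 0.0534) or WT replicate 2 of that hour (0.10, adjusted p = 0.227), and the KO2 difference at 6 h was −0.03 (adjusted p = 0.652).

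Trib3 was higher in both clones at 9 h (0.18 in KO1 and 0.19 in KO2), and at 3 h was higher in KO2 (0.32) and not called in KO1 (0.11, adjusted p = 0.164). At 6 h it was higher in KO1 (0.37) and in KO2 (0.17), the KO2 call being lost without WT replicate 2 (0.10, adjusted p = 0.191) or KO2 replicate 2 of that hour (0.11, adjusted p = 0.111). Atf4 was higher in KO2 at 3 h (0.15) and not called in KO1 (0.02, adjusted p = 0.778), and neither clone was called at 6 h (−0.02 each, adjusted p = 0.696 in KO1 and 0.712 in KO2). At 9 h Atf4 was lower in KO1 (−0.14, adjusted p = 0.0006) and in KO2 (−0.11, adjusted p = 0.00969). The KO2 call was lost without WT replicate 1 at 9 h (adjusted p = 0.132), without KO2 replicate 2 at 9 h (adjusted p = 0.0986) and with DESeq2 (−0.08, adjusted p = 0.144).

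**Figure D4:**
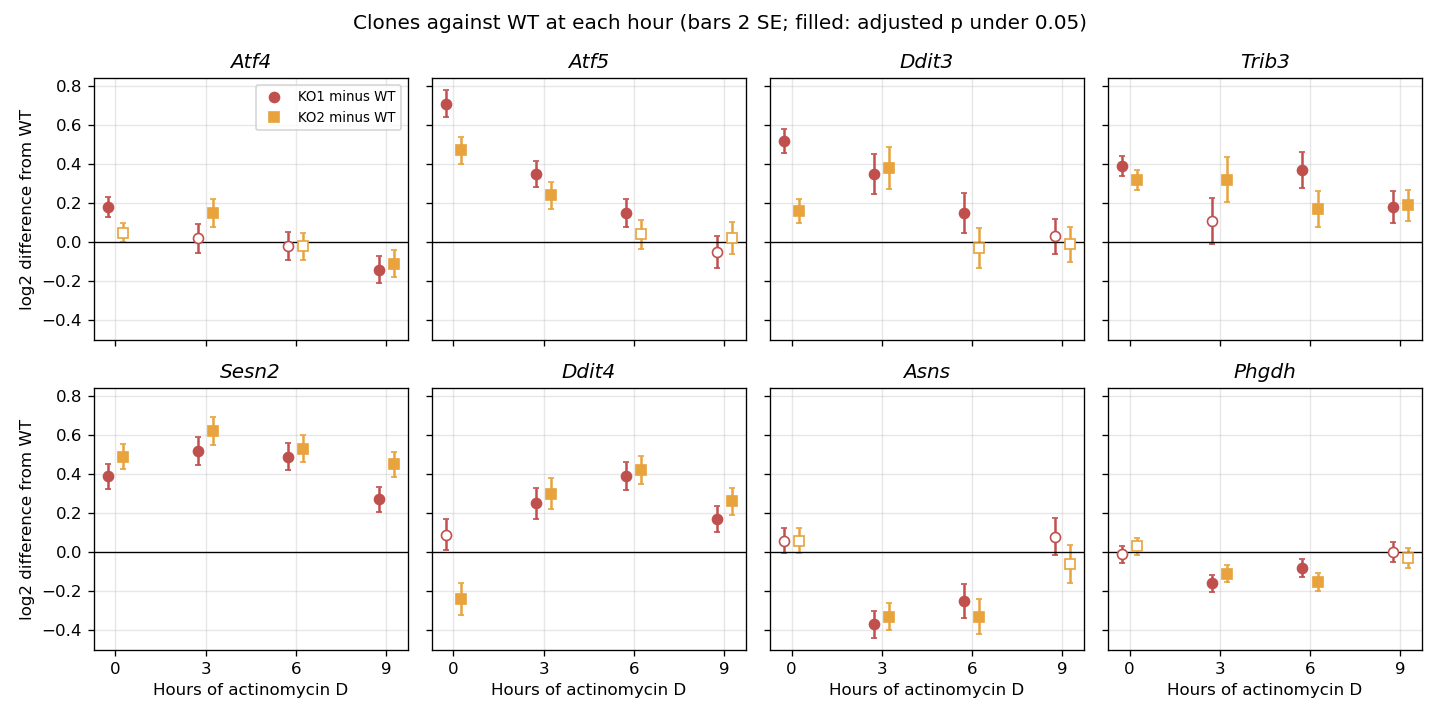
Log2 difference of KO1 (circles) and KO2 (squares) from WT at 0, 3, 6 and 9 h for the 8 tested members, with bars of 2 standard errors and filled symbols for an adjusted p below 0.05. Sesn2 is above 0 throughout, Atf5 comes down to 0 by 9 h, Asns and Phgdh dip at 3 and 6 h, and Ddit4 of KO2 is below 0 at 0 h and above it afterwards.

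Between the clones, 3 members were higher and 1 lower in KO2 than in KO1 at 3 h (12% of all genes called), none was higher and 4 were lower at 6 h (13.4%), and 2 were higher and 1 lower at 9 h (12.4%). Most of these calls were small and did not hold when 1 library was left out, when between 0 and 2 members were called at 3 h, between 2 and 4 at 6 h and between 1 and 2 at 9 h. Sesn2 at 9 h, higher in KO2 by 0.17 (adjusted p = 8.29e-06), and Ddit3 and Trib3 at 6 h, lower in KO2 by −0.18 and −0.21 (adjusted p = 0.00447 and 0.00011), kept their calls in every fit made without 1 library.

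Whether a member's course itself differed between a clone and WT was tested as the difference of the 2 changes, first on the TMM scale. For the change to 3 h, 2 members were higher and 6 lower in KO1 than in WT (25.8% of all genes called), and 3 were higher and 3 lower in KO2 (24.7%). In KO1 the count of 8 went down to 4 when 1 library was left out and to 5 with DESeq2, and both members called higher, Sesn2 and Ddit4, were among those lost. For the change to 9 h, none was higher and 5 were lower in KO1 (27.1%), and 1 was higher and 4 were lower in KO2 (25.9%), where DESeq2 called 3 of these 5 and fits without 1 library called 3 to 5.

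The direction of many of these course differences in KO1, and of Sesn2 to 3 h in KO2, depended on the library scale. On the TMM scale the change of Atf5 to 9 h was lower by −0.77 in KO1 (SE 0.054, adjusted p = 1.36e-23) and −0.45 in KO2 (SE 0.053, adjusted p = 1.39e-11). With spike-in totals as the scale, an alternative added after seeing the data, the difference of Atf5 was 0.14 in KO1 (adjusted p = 0.503) and −0.75 in KO2 (adjusted p = 0.000513), so only the KO2 difference kept its direction and call. The change of Asns to 3 h was lower on the TMM scale by −0.43 in KO1 (SE 0.047, adjusted p = 8.73e-13) and −0.40 in KO2 (SE 0.047, adjusted p = 2.42e-11), and on the spike-in scale differed by −0.09 in KO1 (adjusted p = 0.768) and −0.57 in KO2 (adjusted p = 0.024). The change of Ddit4 in KO2, higher on the TMM scale by 0.54 to 3 h and 0.51 to 9 h, was not called on the spike-in scale (0.37 and 0.20, adjusted p = 0.213 and 0.446). On the spike-in scale the median course difference of all genes to 9 h was itself 0.91 in KO1 and −0.31 in KO2. The Atf5 differences lay below those medians in both clones. A change of scale moves all genes of a comparison by about the same amount. This position therefore restates the TMM result and adds no support to it.

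Of the other lists of the pathway, 4 had most of their genes lower at 9 h and 2 were split, where 80.5% of all genes were called in KO1, 80.8% in KO2 and 81.7% in WT. At 9 h against 0 h, all 12 aminoacyl-tRNA synthetases were lower in each genotype, with median log2 differences of −1.87 in KO1, −1.82 in KO2 and −1.90 in WT. Of 8 amino acid transporters 7 were lower and 1 higher in each genotype (medians −2.12, −2.15 and −1.92 in the same order), and of 10 synthesis enzymes 8 were lower and 1 higher. Of 8 partner and related transcription factors 7 were lower and none higher in each clone, and 6 were lower and 1 higher in WT. The kinases and eIF2 factors were split, with 7 higher and 6 lower of 16 in KO1 and in WT, and 7 higher and 7 lower in KO2. The other effectors were split as well, with 4 higher and 4 lower of 8 in each genotype (medians 0.14 in KO1, 0.02 in KO2 and −0.10 in WT). The p53 targets went the other way, with 10 of 10 higher in KO1, 10 of 10 in KO2 and 9 of 10 in WT (medians 1.65, 1.67 and 1.77). These are values on the TMM scale, and the spike-in scale was not applied to the lists.

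Across the 12 group means, Atf4, Ddit3 and Trib3 ran closely together, with Pearson's r of 0.99 for Atf4 with Ddit3 and 0.96 for Atf4 with Trib3, while Atf4 with Phgdh gave 0.27 and Atf4 with Ddit4 gave −0.66. These coefficients describe 12 means, each of 2 libraries shared by all genes. How many of all genes reach r of 0.96 or 0.99 with Atf4 was not counted, and joint regulation of these members was not tested. Among 10253 genes compared in the same way, those most like Atf4 were Invs (0.9964), Sgms1 (0.9962) and Atad2b (0.9956). For Ddit3 they were Rbbp5 (0.9957), Nfe2l1 (0.9945) and Cnksr3 (0.9927), for Trib3 Stk40 (0.9969), Cep162 (0.9948) and Wipf1 (0.9939), and for Ddit4 Cenpt (0.9769), Cacnb1 (0.9748) and Tmem120a (0.9708). Chac1 had too few counts for such a comparison.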

How the data were processed

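Each of the 24 libraries has a deposited table of counts per gene, made with featureCounts 1.6.3 without strand on exons by gene identifier, per the file headers, whose annotation path names Ensembl 105 and mouse build 39. The submitters' processing notes also name STAR, DESeq2 and GRCm39, with no versions. The library kit keeps strand, per the labels' protocols. The exonic length used for levels per kb is the deposited length of each gene. From the counts, edgeR 4.0.16 in R 4.3.3 was run with a filter on low counts (minimum 10), TMM scaling, 1 coefficient for each of the 12 groups and the quasi-likelihood test, and p-values were adjusted by Benjamini-Hochberg over all 16167 genes, with calls at 0.05. The members and the gene lists were chosen with earlier results of these data known. All members are named, and from each list up to 2 genes called in each direction with the largest difference in either clone at 0 h and a mean of at least 5 CPM. Promoter windows and their motif matches were read from the RefSeq table. DESeq2 1.42.0, other scalings (the spike-in scale for the courses added after seeing the data), no filter, a replicate block, single hours and fits without each library in turn were the alternatives. Libraries whose replicate numbers agree were not treated as pairs: over 66 pairs of groups the correlation of deviations lay between −0.0233 and 0.153. Depth was 15361601 to 17338939 gene counts per library.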

Additional observations from a re-analysis of the deposited data

Results flagged for a closer look

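Groups of 2 libraries allow no test of a library that stands apart. The results listed here are those in which the change of a member over the hours differed between a clone and WT, by edgeR's quasi-likelihood test of the difference of the 2 changes with Benjamini-Hochberg adjustment over all genes on the TMM scale. Both clones were set against the same WT libraries.

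For the change to 3 h in KO1 against WT, the log2 difference was −0.16 for Atf4, −0.37 for Atf5, −0.16 for Ddit3, −0.28 for Trib3, −0.43 for Asns, −0.15 for Phgdh, 0.13 for Sesn2 and 0.16 for Ddit4. Leaving out 1 of the 8 libraries in turn ended the call for Sesn2 in 7 fits (adjusted p of these 0.0621 to 0.219), for Ddit3 in 4 fits (0.0725 to 0.343), for Ddit4 in 4 fits (0.199 to 0.303) and for Atf4 in 1 fit, that without KO1 replicate 2 at 3 h (0.0546). For the change to 9 h in KO1 against WT it was −0.32 for Atf4, −0.77 for Atf5, −0.48 for Ddit3, −0.20 for Trib3 and −0.12 for Sesn2, the last lost in 6 of the 8 fits (0.0558 to 0.189).

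For the change to 3 h in KO2 against WT, the log2 difference was −0.24 for Atf5, 0.22 for Ddit3, −0.40 for Asns, −0.14 for Phgdh, 0.13 for Sesn2 and 0.54 for Ddit4. Ddit3 was not called without KO2 replicate 2 at 3 h (0.15, adjusted p = 0.124), and Sesn2 was lost in 4 of the 8 fits (0.104 to 0.185). For the change to 9 h in KO2 against WT it was −0.16 for Atf4, −0.45 for Atf5, −0.17 for Ddit3, −0.13 for Trib3 and 0.51 for Ddit4, with Ddit3 lost in 3 fits (0.0982 to 0.103) and Trib3 in 6 fits (0.0507 to 0.325). The differences of Atf4, Atf5, Asns, Phgdh and Ddit4 in KO2 kept their calls in every fit without 1 library. In KO1 those of Atf5 and Trib3 at both hours, of Asns and Phgdh at 3 h and of Atf4 and Ddit3 at 9 h did so.

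With spike-in totals as the scale, an alternative chosen after seeing the data, several of these differences in KO1 changed direction. To 3 h in KO1 Sesn2 (0.47) and Ddit4 (0.50) were called (adjusted p = 0.0341 and 0.0236), and the other 6 were not. The median over all genes was itself 0.34 there, with 3245 genes called higher and 76 lower, so these 2 calls include that general shift. To 9 h in KO1 the differences turned to 0.58 for Atf4, 0.42 for Ddit3, 0.70 for Trib3 and 0.78 for Sesn2, all called, and to 0.14 for Atf5, not called (adjusted p = 0.503), beside a median of 0.91 over all genes. In KO2 Asns to 3 h (−0.57) and Atf4, Atf5 and Ddit3 to 9 h (−0.46, −0.75 and −0.47) kept their direction and call, and the others were not called. The medians over all genes in KO2 were −0.16 to 3 h and −0.31 to 9 h.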

How the results depend on the processing

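Of 44 calls of members in a clone against WT, 40 were kept under every alternative run, as were 7 of 16 between KO2 and KO1, and, the spike-in scale set aside, 88 of 93 between hours and 15 of 24 in the courses. Between KO2 and KO1, DESeq2 called 2 members at 3 h (4 as reported), 2 at 6 h (4) and 1 at 9 h (3), where no filter also gave 1. Without 1 library the counts ran from 0 to 2 at 3 h, 2 to 4 at 6 h and 1 to 2 at 9 h. Over all genes, KO2 against KO1 at 9 h gave 2010 calls as reported and 1333 with DESeq2. For the course to 3 h in KO1 DESeq2 called 5 of the reported 8, and fits without 1 library called 4 to 7. For the course to 9 h in KO2, RLE factors and DESeq2 each called 3 of the reported 5, and fits without 1 library called 3 to 5. Libraries with the same replicate number were not treated as pairs. Their correlation of deviations had a median of 0.0101, with 45 of 66 pairs of groups above 0 and 4 over 0.1. The replicate block ended 1 call, that of Sesn2 in KO2 against KO1 at 3 h (adjusted p = 0.0533). In WT at 9 h against 3 h the spike-in scale gave 4 calls against 8. Of all 16167 genes it called 2822 higher and 6387 lower there, against 10649 called either way as reported. On that scale these log2 differences turned round: in WT Atf5 (−0.39) and Phgdh (−0.13) at 3 h, Ddit4 at 6 h (−0.59) and 9 h (−0.29), and Atf4 from 3 h to 9 h (−0.12); in KO1 Ddit4 at 3 h (−0.01); in KO2 Phgdh at 3 h (−0.44), Ddit4 at 3, 6 and 9 h (−0.14, −0.26 and −0.09), and Ddit3 (−0.26) and Sesn2 (−0.28) from 3 h to 9 h. In the courses, to which it was applied after seeing the data, it turned in KO1 against WT Atf4 (0.18), Ddit3 (0.18), Trib3 (0.06) and Phgdh (0.19) to 3 h, and Atf4 (0.58), Atf5 (0.14), Ddit3 (0.42), Trib3 (0.70) and Sesn2 (0.78) to 9 h, and in KO2 Sesn2 to 3 h (−0.04). It called 2 members of the reported 8 to 3 h in KO1, 1 of 6 to 3 h in KO2 and 3 of 5 to 9 h in KO2, and over all genes 10545 against 4386 to 9 h in KO1, 836 against 3986 to 3 h in KO2 and 2579 against 4192 to 9 h in KO2. To 3 h in KO1 it called 3245 of all 16167 genes higher and 76 lower, against 4172 called either way as reported. Spike-in counts as low as 120 in a WT library limit that scale. So does the KO1 median over all genes on it, which was −0.34 at 6 h and 0.20 at 9 h, both from 0 h. Beyond the choice of scale, the cause was not tested.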
